A study of Mus musculus with 2 samples.

Results

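The nuclear genes of the mitochondrial respiratory chain were described across the 10 cell populations that the authors named in the normal mouse aorta. Members were taken by symbol: nuclear genes starting with Nduf, Uqcr, Sdh or Atp5, or with Cox and a digit from 4 to 8. Ndufa4l2 and Cox4i2 were left out, which gave 92 of the 16971 genes in the table. The rule uses symbols only. The members fall into complex I core and accessory subunits, complexes II, III, IV and V, and assembly factors and relatives.

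The mice were wild-type C57/BL6 females, 12 weeks old and kept on chow, and their whole aortas were used. Fat around the vessels had been dissected off before digestion with enzymes, red cells were lysed, and no selection of a cell type is described. The design had 4 aortas, of which 2 libraries of 1 group are used here. They are numbered 1 and 2 because the sources used here do not say which labelled mouse is which.

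Library 1 held 2260 cells and 11104066 UMIs, tags that count each captured transcript once, and library 2 held 3191 cells and 19484171 UMIs. The populations were named VSMC (smooth muscle), Fibro 1 and Fibro 2, EC 1, EC 2 and EC 3 (endothelial), Mono 1, Mono 2 and Macro (immune) and Neuron. Neuron was smallest, with 12 and 32 cells. VSMC markers summed to 33865 and 31072 CPM in VSMC, and fibroblast markers to 29049 and 36344 CPM in Fibro 1, where CPM is the UMI count scaled to 1000000 UMIs of a population in a library. Macro went against its name: macrophage markers summed to 745 and 227 CPM there and to 33847 and 31099 CPM in Mono 1, while T and NK cell markers summed to 1443 and 1586 CPM and B cell markers to 1447 and 779 CPM in Macro. Neuron held Schwann cell markers at 7133 and 11172 CPM. The names are kept as labels. The libraries shared 12 cell barcodes.

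Respiratory chain complexes sit in the inner mitochondrial membrane. Complexes I and II pass electrons to ubiquinone, complex III passes them to cytochrome c and complex IV to oxygen, and complex V (ATP synthase) uses the proton gradient to make ATP. Mitochondrial DNA encodes a few core subunits and the nucleus the rest. Vascular smooth muscle uses both respiration and glycolysis, and endothelial cells are known for a strong reliance on glycolysis.

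Promoters of these genes are known targets of NRF1, ETS factors such as GABPA, ERR and YY1. RefSeq promoter windows (GRCm38.p6, 250 bases before to 50 after a start) matched 79 of the 92 members and were searched on both strands for short motif cores. Giving the share of members' windows first and that of all 27025 windows second, the NRF1 core GCATGCG was in 15.2% against 3.64%, the ETS core CCGGAAG in 24.1% against 9.12%, the ERR core AAGGTCA in 10.1% against 4.66% and the YY1 core AAGATGG in 13.9% against 6.48%. All windows were taken without matching to the members by expression or base content, so the contrast is not specific to respiratory chain genes. A match describes letters and is not evidence of binding. The 250 bases before the start are shown for Ndufb2 and Ndufa11, the members with the highest folds in VSMC, and for Cox7a1 and Cox8b, the members with the highest folds in EC 2. Each runs 5′ to 3′ on the gene's strand. Capitals mark the ERR core in Ndufb2 and overlapping NRF1 cores on both strands in Ndufa11, and the other pair held none of the 4 cores in these bases. The windows are chr6:39592315-39592564 (plus strand) for Ndufb2, chr17:56717512-56717761 (plus) for Ndufa11, chr7:30183921-30184170 (plus) for Cox7a1 and chr7:140900447-140900696 (minus) for Cox8b.
Ndufb2: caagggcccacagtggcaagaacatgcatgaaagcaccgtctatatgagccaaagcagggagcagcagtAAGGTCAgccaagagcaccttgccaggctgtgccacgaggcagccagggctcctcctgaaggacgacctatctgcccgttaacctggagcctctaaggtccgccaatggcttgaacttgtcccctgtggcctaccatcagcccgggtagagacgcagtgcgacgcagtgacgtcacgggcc
Ndufa11: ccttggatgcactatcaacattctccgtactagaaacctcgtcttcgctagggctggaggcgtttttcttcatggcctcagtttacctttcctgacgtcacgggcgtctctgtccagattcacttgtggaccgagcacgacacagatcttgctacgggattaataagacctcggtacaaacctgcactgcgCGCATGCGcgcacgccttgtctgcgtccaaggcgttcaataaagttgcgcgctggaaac
Cox7a1: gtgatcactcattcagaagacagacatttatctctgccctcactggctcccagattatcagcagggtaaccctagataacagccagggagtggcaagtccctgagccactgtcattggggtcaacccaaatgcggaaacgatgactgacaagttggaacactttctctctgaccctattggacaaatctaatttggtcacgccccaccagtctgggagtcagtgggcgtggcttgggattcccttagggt
Cox8b: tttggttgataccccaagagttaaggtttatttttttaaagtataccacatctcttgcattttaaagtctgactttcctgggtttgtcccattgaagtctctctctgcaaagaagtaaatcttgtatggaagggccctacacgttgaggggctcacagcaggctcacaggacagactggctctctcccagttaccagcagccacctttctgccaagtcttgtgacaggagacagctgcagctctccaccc

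All 92 members had at least 1 UMI in each library, from 11 in all (Cox6a2) to 29336 (Cox4i1), with a median of 6293. Together they held 2.34% of UMIs. In libraries 1 and 2 the share was 2.68% and 2.75% in VSMC and 2.57% and 2.79% in EC 2. It was 2.33% and 2.21% in EC 1, 2.20% and 2.27% in EC 3 and 2.30% and 2.21% in Mono 2. It was 2.05% and 1.90% in Fibro 1, 1.99% and 1.86% in Fibro 2, 1.92% and 2.04% in Mono 1, 1.88% and 1.83% in Macro and 1.93% and 2.39% in Neuron. VSMC and EC 2 lay above the other 8 populations within each library and overlapped each other. The mean ± SD over n = 2 libraries was 2.72% ± 0.0499 in VSMC, 2.68% ± 0.153 in EC 2, 2.27% ± 0.0826 in EC 1 and 1.85% ± 0.0412 in Macro. No test was made of these shares. Fewer mitochondria and less RNA of these genes per mitochondrion cannot be told apart here.

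**Figure D1:**
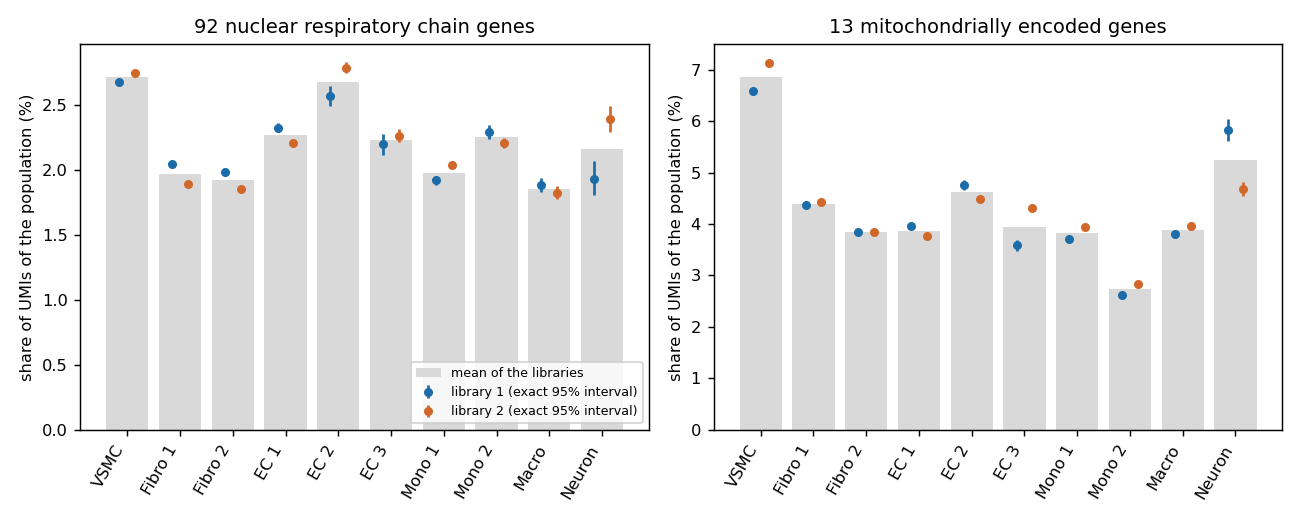
Share of UMIs (%, vertical axis) from the 92 nuclear respiratory chain genes (left) and from the 13 mitochondrially encoded genes (right) in the 10 populations. Bars are means of the libraries and points are single libraries with exact 95% binomial intervals, which cover counting error only. VSMC and EC 2 stand highest on the left, at 2.72% and 2.68% on average.

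The order depended in part on what else the cells held. Cytosolic ribosomal protein genes took 29.1% and 33.5% of UMIs in Macro and 10.7% and 12.9% in VSMC. With their UMIs and the mitochondrially encoded ones left out of the total, the mean share was 3.34% in VSMC, 3.24% in EC 2, 3.01% in Mono 2 and 2.86% in Macro. Fibro 1 and Fibro 2 were then lowest, at 2.33% and 2.39%. VSMC and EC 2 were highest under both totals, and Macro was lowest under 1 of them.

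The mitochondrially encoded genes, whose proteins join the nuclear ones in the complexes, held 6.59% and 7.13% of UMIs in VSMC and 2.63% and 2.84% in Mono 2. Per nuclear respiratory chain UMI this was 2.52 ± 0.0920 (SD, n = 2) in VSMC, 1.70 ± 0.00380 in EC 1 and 1.22 ± 0.101 in Mono 2. Leaving out Neuron, whose libraries lay far apart, VSMC had the highest mean ratio and Mono 2 the lowest. Cells over 10% mitochondrial UMIs, 659 in all, were kept here, and 282 of library 1 and 221 of library 2 were VSMC. The ratios were not repeated without them.

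Fold changes below are log2 values from 1 edgeR quasi-likelihood fit to sums of UMIs, each over 1 population of 1 library, with n = 2 libraries. The ± after a fold is a standard error, and called means a Benjamini-Hochberg adjusted p under 0.05 over all 10488 genes tested. P-values measure only the scatter between these libraries that population and library terms leave, pooled over the populations. The mean difference between the libraries is taken out by the library term. The populations were probably defined from the same counts, so a fold between them is not independent of how cells were grouped. Of the 92 members 88 were tested, and Ndufaf1 (367 UMIs), Ndufaf6 (205), Atp5s (136) and Cox6a2 (11) had too few UMIs.

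VSMC were set against the average of the fibroblast, endothelial and immune classes. In VSMC 52 of 88 members were higher and 6 lower, where 28.7% of all genes were higher and 20.6% lower. The median member stood at 0.31 and the median gene at 0.02. Complex I was the most uniform: 7 of 7 core subunits, which carry its catalytic centres, were higher (median 0.38), and 22 of 29 accessory subunits (median 0.50), with 0 lower in either. Complex III had 4 of 8 higher and complex V 5 of 15 (median 0.21).

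Ndufb2, an accessory subunit of complex I, had 307 and 319 CPM in VSMC and 83.7 to 244 CPM (median 166) over the other 18 sums. Its fold was 0.98 ± 0.07 (adjusted p = 5.8e-13). Ndufa11, another accessory subunit, had 377 and 339 CPM in VSMC and 119 to 323 CPM (median 173) elsewhere, with a fold of 0.96 ± 0.11. For both genes the VSMC libraries lay above all other sums. Further accessory subunits higher in VSMC were Ndufb9 (0.84), Ndufs5 (0.83) and Ndufv3 (0.80).

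In complex IV 9 of 15 members were higher in VSMC and 2 lower. Cox6c had 1098 and 1138 CPM in VSMC and 517 to 878 CPM (median 598) elsewhere (0.83 ± 0.11). Cox6a1, the widely expressed form of subunit 6a, had 872 and 875 CPM in VSMC and 343 to 841 CPM (median 499.9) elsewhere (0.78 ± 0.10). Neither overlapped. The heart and skeletal muscle form of that subunit, Cox6a2, had only its 11 UMIs in the whole table.

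Complex II, which also belongs to the citric acid cycle, was not uniform. Sdhc, a membrane anchor, had 135 and 138 CPM in VSMC and 42.3 to 118 CPM (median 73.9) elsewhere, without overlap, and was higher by 0.85 ± 0.10 (adjusted p = 2.0e-08). The other anchor, Sdhd, was lower (-0.30 ± 0.11), with 59.6 and 59.9 CPM in VSMC and 46.2 to 129 CPM (median 69.4) elsewhere, so VSMC lay within the other sums. The highest were Mono 2, at 129 and 101 CPM. Sdhb, the iron-sulphur subunit, was higher (0.22), and the flavoprotein Sdha stood at 0.11 (adjusted p = 0.31).

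Also lower in VSMC were Cox7a2l, which takes part in joining complexes III and IV (-0.48), the complex II assembly factors Sdhaf4 (-0.53) and Sdhaf2 (-0.37), and Atp5sl (-0.68). The complex I assembly factors Ndufaf2 (0.67), Ndufaf3 (0.51) and Ndufaf4 (0.43) were higher. Cox8b was called lower (-0.88), but its 0.671 and 21.6 CPM in VSMC lay beside 3.30 and 20.7 in EC 1, and the other classes include EC 2, described below. With cells thinned to 1300 UMIs its call was lost (-0.34, adjusted p = 0.55).

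**Figure D2:**
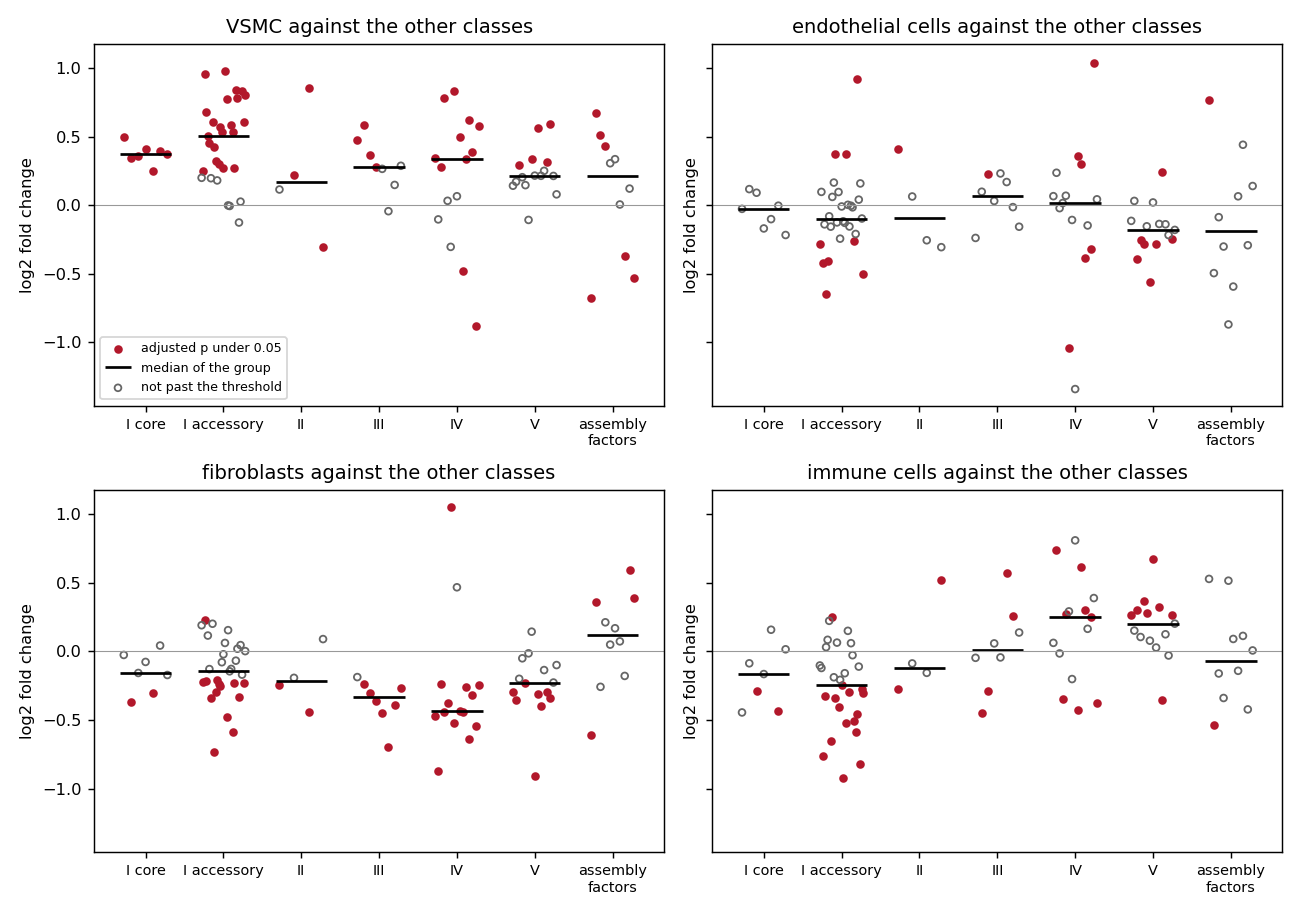
Log2 fold change (vertical axis) of the 88 tested members in each of 4 classes against the mean of the other 3, grouped by complex. Each point is a gene, filled where the edgeR adjusted p is under 0.05, and lines are group medians. Complex I accessory subunits have a median of 0.50 in VSMC and -0.24 in immune cells, and complex IV of -0.43 in fibroblasts. The lowest open point of the endothelial panel is Cox7a1, whose fitted value rests on a population without a UMI and gives no size.

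For 17 of the 88 members both VSMC libraries lay above every other sum, as did 4.82% of all genes tested. Besides those named, they were Ndufa2, Ndufa12, Ndufa13, Ndufb3 and Ndufb6 of complex I, Uqcr11 of complex III, Ndufa4 and Cox7c of complex IV and Atp5k of complex V. By mean level VSMC were the highest of the 10 populations for 29 members (8.98% of all genes) and EC 2 for 27 (13.1%). Macro was lowest for 27 (15.6%). These are CPM over all UMIs, of which ribosomal protein genes took 29.1% and 33.5% in Macro, and the ranking was not repeated without them.

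Other mitochondrial genes in VSMC were counted by list. All 13 mitochondrially encoded genes were higher. Of 16 citric acid cycle genes 11 were higher and 0 lower, among them Suclg2 (1.06) and Sucla2 (0.65). Of 11 electron carriers and exchangers 6 were higher, led by Slc25a4, an ADP/ATP exchanger (1.29 ± 0.10), and Vdac1, an outer membrane channel (0.78). Of 73 mitochondrial ribosomal protein genes 32 were higher and 2 lower, and of 94 cytosolic ones 0 and 68. Among 8 regulators of mitochondrial biogenesis Tfb2m was higher (0.78), and Nrf1 (-0.52) and Tfam (-0.45) were lower.

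Depth moved with the share in VSMC. The tercile of VSMC with the fewest UMIs had a pooled share of 2.07% in library 1 and 2.35% in library 2, and the deepest tercile 2.85% and 2.80%. In Macro the shallow tercile had 1.68% and 1.51% and the deep one 2.06% and 1.95%. The order was the other way in EC 1, EC 2 and Mono 2 of library 2 and in EC 3 and Neuron of library 1. With every cell thinned to 1300 UMIs, 50 of 83 tested members were higher in VSMC and 2 lower. Without the 659 cells over 10% mitochondrial UMIs, 60 were higher and 4 lower. The higher count fell to 37 without the library term, 41 with RLE size factors and 44 with DESeq2, and was 65 without the filter on low counts.

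Fibroblasts had lower levels for many members. Against the other classes 5 of 88 were higher and 46 lower, where 27.6% of all genes were higher and 19.3% lower, with medians of -0.23 for members and 0.00 for all genes. The lower count was 25 without the library term and 22 of 83 with cells thinned to 1300 UMIs. In complex III 7 of 8 were lower and in complex IV 13 of 15 (median -0.43). In complex I 2 of 7 core and 13 of 29 accessory subunits were lower, and in complex V 8 of 15.

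Cox5a, a complex IV subunit, had 124 to 163 CPM in the 4 fibroblast sums and 92.3 to 429.8 CPM (median 227) in the others, and of these EC 3 of library 1 lay within the fibroblast range and Neuron of library 1 below it. Its fold was -0.87 ± 0.12 (adjusted p = 2.6e-07). Uqcrfs1, the Rieske iron-sulphur protein of complex III, was lower (-0.70 ± 0.10), as were Ndufa6 (-0.74), Cox7c (-0.64) and Ndufb7 (-0.59). Cox8b was called lower (-0.54), with EC 2 among the classes compared, at 0.52 in library 1 alone but -0.61 in library 2 alone.

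Of the 5 members higher in fibroblasts, Cox6b2, known as the testis form of subunit 6b, had 25.99 and 26.04 CPM in Fibro 1, 24.96 and 22.9 in Fibro 2, 8.56 and 15.01 in VSMC and 4.95 and 9.36 in EC 1 (1.05 ± 0.20, adjusted p = 4.0e-05). It had 29.6 and 10.1 CPM in EC 2 and 18.6 and 28.8 in Mono 1, so the fibroblasts did not stand apart from these. It made up 5.55% ± 0.135 of Cox6b UMIs in Fibro 1 and 1.25% ± 0.664 in EC 1 (SD, n = 2). The others were the assembly factors Sdhaf3 (0.60), Sdhaf4 (0.39) and Ndufaf2 (0.36), and Ndufa11 (0.23).

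Between the fibroblast populations few members differed. In Fibro 2 Ndufs8 (-0.44 ± 0.15) and Ndufb2 (-0.42 ± 0.11), both of complex I, were lower than in Fibro 1, where 8.3% of all genes were lower and 7.2% higher. Ndufb2 had 244 and 206 CPM in Fibro 1 and 182 and 158 in Fibro 2, without overlap. With edgeR 0 were higher, 1 at an unadjusted p under 0.05 and 0 with DESeq2.

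Immune cells differed by complex. Against the other classes 16 of 88 members were higher and 25 lower, where 22.5% of all genes were higher and 27.7% lower (medians -0.03 and -0.11). The split turned with the setting. Without Macro in the fit 23 were higher and 12 lower, and with cells thinned to 1300 UMIs 6 and 22. Without the filter on low counts it was 7 and 27. It was 21 and 17 with RLE size factors and 24 and 18 with DESeq2. Among complex I accessory subunits 1 was higher and 15 were lower, and in complex V 7 of 15 were higher and 1 lower. With RLE these were 3 and 10, and 8 and 1. With cells thinned to 1300 UMIs complex V had 3 higher and 2 lower, and without Macro in the fit accessory subunits had 3 higher and 8 lower.

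The ratio of complex I to complex V UMIs needs no scaling between populations. It was 1.17 ± 0.0230 in Mono 1, 1.01 ± 0.0168 in Macro and 0.94 ± 0.00905 in Mono 2 (SD, n = 2), against 1.43 ± 0.0396 in VSMC, 1.37 ± 0.0552 in Fibro 1 and 1.31 ± 0.110 in EC 1. All 6 immune values lay below the 14 others. The ratio compares populations and not the amounts of the complexes.

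Ndufb2 had 83.7 to 129 CPM in the immune sums and 139 to 319 CPM (median 189) elsewhere, without overlap (-0.92 ± 0.09, adjusted p = 6.2e-10). Ndufs5 had 98.7 to 167 CPM and 160.2 to 358 CPM (median 243), with a narrow overlap (-0.82 ± 0.12). Ndufa11 (-0.77) and Ndufa5 (-0.65) were lower too. Higher were Cox5a (0.74 ± 0.11), Atp5g2 (0.67), Cox7a2l (0.62), Uqcrfs1 (0.57) and Sdhd (0.52). Of 94 cytosolic ribosomal protein genes 92 were higher in immune cells, and their part in these folds was not tested. Of 16 fatty acid oxidation genes 2 were higher and 9 lower, among them Hadh (-0.95) and Acadvl (-0.86).

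Mono 1 had lower levels than Mono 2 for 15 of 88 members, where 8.12% of all genes were lower and 9.01% higher. With edgeR 0 were higher, 3 at an unadjusted p under 0.05 and 0 with DESeq2. Complex V held 7 of the lower ones, including its gamma subunit Atp5c1 (-0.81) and epsilon subunit Atp5e (-0.79). Ndufa6 had 225 and 266 CPM in Mono 1 and 550.2 and 512 in Mono 2 (-1.24 ± 0.18, adjusted p = 2.9e-06). Uqcrfs1 had 74.4 and 114 and 211 and 197 CPM (-1.18 ± 0.21). Neither pair overlapped. Of 15 glycolysis genes 9 were lower in Mono 1 too, such as Pgk1 (-1.85). Median UMIs per cell were 3574 and 4421.5 in Mono 1 and 7286 and 6920 in Mono 2, and with cells thinned to 1300 UMIs 1 member was lower.

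Against Macro, Mono 1 had 18 members higher and 1 lower, where 14.1% of all genes were higher and 9.94% lower (medians 0.20 and 0.12). With RLE size factors this was 9 and 2 (medians 0.07 and 0.005), and with DESeq2 11 and 2. The direction of the summed share depended on the total. Without mitochondrially encoded and ribosomal protein UMIs it was 2.32% and 2.57% in Mono 1 and 2.81% and 2.92% in Macro. The part of ribosomal protein UMIs in these folds was not tested. Uqcr11 of complex III had 369 and 351 CPM in Mono 1 and 188 and 198 in Macro, without overlap (1.01 ± 0.20, adjusted p = 2.0e-04). Ndufc1 (0.91) and Uqcrb (0.88) were higher, and Cox7a2l was lower (-0.65). Cox6b2 had 49 UMIs in Mono 1 and 3 in Macro, a CPM ratio of 4.37 with a 95% counting interval of 1.41 to 21.9.

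Endothelial cells were mixed against the other classes, with 10 members higher and 15 lower, where 17.4% of all genes were higher and 15.7% lower (medians -0.10 and -0.04). Without Macro in the fit 8 were higher and 29 lower, without cells holding a Ucp1 UMI 8 and 22, and with cells thinned to 1300 UMIs 9 and 9. Ndufc2, an accessory subunit of complex I, had 196 and 184 CPM in EC 1, 527 and 649.7 in EC 2 and 380.4 and 373 in EC 3, and 83.7 to 224 CPM (median 178) outside. EC 2 and EC 3 lay above the other classes and EC 1 within them. Its fold was 0.92 ± 0.10 (adjusted p = 8.0e-09). Sdha (0.41) and Ndufb4 (0.37) were also higher, and Cox8b (1.03), whose call was lost without cells holding a Ucp1 UMI (0.59, adjusted p = 0.26). Lower were Ndufa13 (-0.65 ± 0.10), Atp5g1 (-0.56), Ndufv3 (-0.50) and Cox6b2 (-1.04), and 6 of 15 complex V genes in all. Of 13 mitochondrially encoded genes 12 were lower.

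EC 2 against EC 1 gave 13 members higher and 2 lower, where 9.23% of all genes were higher and 11.1% lower (medians 0.16 and -0.01). Without cells holding a Ucp1 UMI, described below, the median member was -0.03, and with cells thinned to 1300 UMIs 7 were higher and 3 lower. In complex III Uqcrq (0.66), Uqcrfs1 (0.65) and Uqcrc1 (0.61) were higher, and in complex I Ndufc2 (1.54 ± 0.19), Ndufa8 (0.74) and Ndufs8 (0.72). Sdhb was higher by 0.97 ± 0.18. Atp5j, coupling factor 6 of the synthase, had 882 and 898 CPM in EC 2 and 314 to 552 CPM (median 461) elsewhere, without overlap (0.68 ± 0.16 against EC 1). Cox7a2l was lower (-0.73).

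Cox8b and Cox7a1 encode the forms of subunits 8 and 7a known from heart, skeletal muscle and brown fat. Cox8b had 118 and 463 CPM in EC 2 (20 and 276 UMIs) and 3.30 and 20.7 in EC 1 (2 and 31 UMIs), a fold of 4.44 ± 0.31 (adjusted p = 6.6e-13). Cox7a1 had 88.8 and 161 CPM in EC 2 (15 and 96 UMIs) and 1.65 and 5.35 in EC 1 (1 and 8 UMIs), a fold of 4.88 ± 0.42. Both libraries of EC 2 lay above both of EC 1 for each gene, and library 2 was the higher within EC 2.

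Outside EC 2 Cox8b ran from 0 to 5.76 CPM in library 1 and from 18.5 to 74.8 CPM in library 2, which was higher in each of the 9 populations. The widely expressed form, Cox8a, ran from 450.2 to 889 CPM over all 20 sums. Cox8b made up 14.3% and 36.3% of Cox8 UMIs in EC 2 and 0.481% and 3.14% in EC 1. Cox7a1 made up 12.6% and 19.8% of Cox7a1 and Cox7a2 UMIs in EC 2 and 0.287% and 1.01% in EC 1. In Neuron Cox7a1 made up 13.6% and 10.5% of Cox7a1 and Cox7a2 UMIs, above EC 2 in library 1, but rested on 3 and 6 UMIs.

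**Figure D3:**
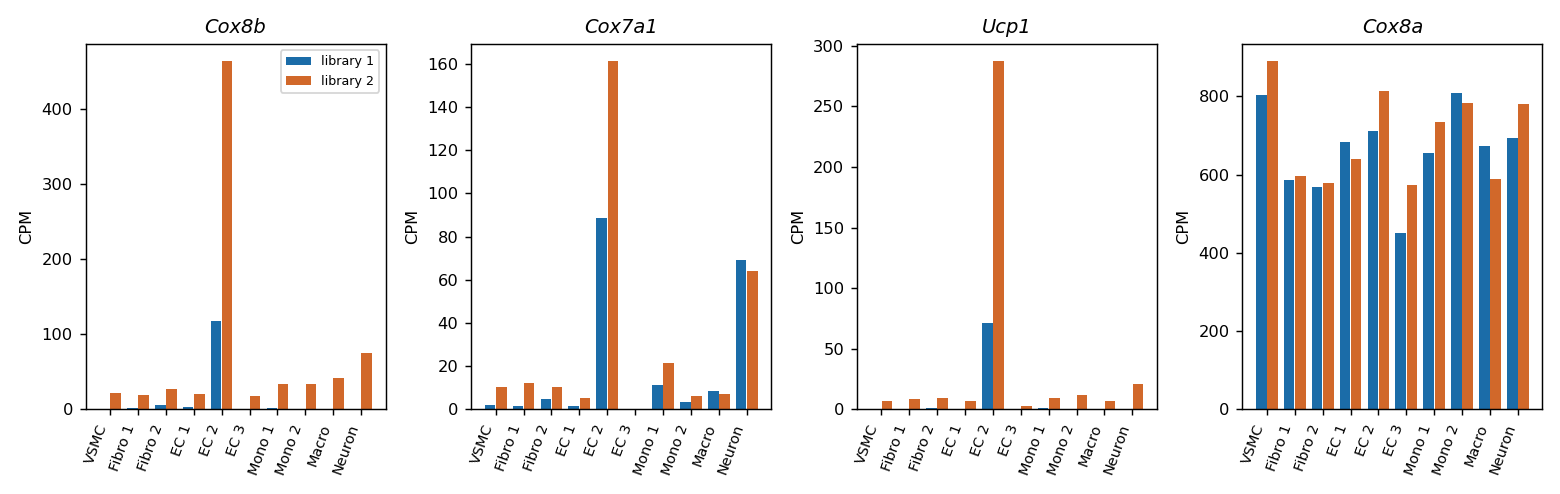
Level (CPM, vertical axes with separate scales) of Cox8b, Cox7a1, the brown fat gene Ucp1 and the widely expressed Cox8a in the 10 populations, 1 bar per library. EC 2 is highest for Cox8b, at 118 and 463 CPM, and for Cox7a1, at 88.8 and 161 CPM.

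Ucp1, the uncoupling protein of brown fat cells, moved with them (5.44 ± 0.35 against EC 1). Of 229 EC 2 cells 109 had a Cox8b UMI, 83 a Ucp1 UMI and 67 both. With cells thinned to 1300 UMIs a Cox8b UMI was found in 31.00% of EC 2 cells and 1.65% of EC 1 cells. In the other 8 populations the share ran from 1.06% (1 of 94 EC 3 cells) to 6.82% (3 of 44 Neuron cells). The source of the UMIs outside EC 2 was not tested. Unthinned, the shares in EC 2 and EC 1 were 47.6% and 6.82%, at median depths of 2394 and 2790 UMIs in EC 2 and 3286.5 and 4710 in EC 1. The 23 EC 2 cells richest in Cox8b held 49.7% of its UMIs.

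Some fat cell markers moved with these genes, and their part in the result was not tested beyond the values here. The 7 adipocyte markers summed to 266 and 522 CPM in EC 2, with Lep at 0. In the other populations they summed to 0 to 14.4 CPM in library 1 and 46.2 to 481 CPM in library 2, where Neuron was highest and the next stood at 64.8 CPM. The markers were unequal. Car3 was found in 30.4% and 41.6% of EC 2 cells and 0.676% and 11.2% of EC 1 cells, and Cidec in 5.36% and 16.2% against 0% and 3.25%. Retn (1.79% and 8.09% against 0% and 7.58%) and Adipoq (0% and 4.62% against 0% and 3.61%) lay closer together. The 4 brown fat markers summed to 130.2 and 381 CPM in EC 2 and 0 and 25.4 CPM in EC 1, with Cpt1b at 0 in EC 2. Endothelial markers summed to 3273 and 3888 CPM in EC 2 and 5900.3 and 6264 CPM in EC 1. Red cell markers summed to 3623 and 23324 CPM and VSMC markers to 3546 and 1101 CPM in EC 2, against 16555 and 5846 CPM and 2008 and 1201 CPM in EC 1. Of 16 fatty acid oxidation genes 8 were higher in EC 2, such as Acaa2 (1.41), and Cpt1a was lower (-1.54). Of 16 citric acid cycle genes 4 were higher, led by Idh3a (2.02).

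EC 2 cells with a Ucp1 UMI, 9 in library 1 and 74 in library 2, had respiratory chain shares of 2.69% and 3.41%. Those without had 2.54% and 2.34%. With all cells holding a Ucp1 UMI left out, an alternative chosen after seeing the data, 7 members were higher in EC 2 and 4 lower, and 9 of the 15 kept their call. The median gene then stood at -0.01. Cox7a1 stood at 3.56, Cox8b at 3.01 and Ndufc2 at 1.52. Among those no longer called were Uqcrfs1 (0.18), Uqcrq (0.31), Uqcrc1 (0.32), Ndufs8 (0.46) and Cox5a (0.57).

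**Figure D4:**
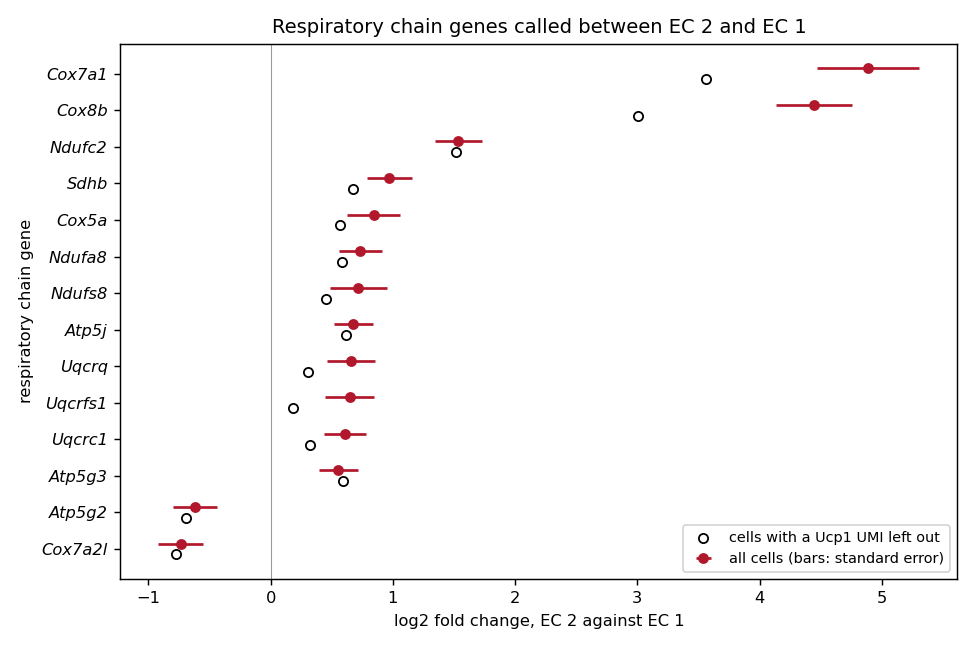
Log2 fold change (horizontal axis) between EC 2 and EC 1 of 14 of the 15 called members, with all cells (with standard errors) and with cells holding a Ucp1 UMI left out. Cox8b moves from 4.44 to 3.01, Uqcrfs1 from 0.65 to 0.18, and Ndufc2 from 1.54 to 1.52.

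Against EC 3, EC 2 had 11 members higher, where 5.52% of all genes were higher and 6.17% lower. With edgeR 0 were lower, 1 at an unadjusted p under 0.05 and 0 with DESeq2. Cox7a1 had 111 UMIs in EC 2 and 0 in EC 3, so it was at least 21.9-fold higher against a floor of 3 counts over EC 3, and 0 of 94 EC 3 cells allows a share of cells with a UMI of up to 3.19%. Cox8b (4.87 ± 0.48), Atp5j (0.99), Atp5g3 (0.95) and Uqcrfs1 (0.86) were higher. Cox8b had only 0 and 6 UMIs in EC 3, and its CPM ratio was 29.2 with a 95% counting interval of 13.3 to 80.3. Without cells holding a Ucp1 UMI 6 members were higher.

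EC 3, which held lymphatic markers at 30150.1 and 12159.8 CPM, had 1 member higher than EC 1 and 4 lower, where 5.64% of all genes were higher and 5.97% lower. With RLE size factors these were 1 and 2. Ndufc2 was higher (0.81 ± 0.21, adjusted p = 0.0075), and Ndufa6 (-0.69), Uqcrh (-0.63), Uqcr11 (-0.59) and Cox8a (-0.53) were lower. The comparisons of EC 2 and of EC 3 share the EC 1 cells.

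Atp5g1, Atp5g2 and Atp5g3 encode the same mature c subunit of the ATP synthase ring with different import sequences. Atp5g1 gave 50.9% and 41.8% of their UMIs in Fibro 1 and 48.8% and 41.95% in Fibro 2, against 37.01% and 34.4% in VSMC and 29.8% and 20.5% in EC 2. Atp5g2 gave 24.9% and 33.03% in Fibro 1, 45.1% and 54.5% in EC 1 and 48.1% and 50.8% in Mono 1. Fibroblasts thus had a larger share from Atp5g1 and a smaller share from Atp5g2 than the populations set beside them, in both libraries. Neuron of library 2 went further than the fibroblasts, at 46.97% for Atp5g1 and 25.8% for Atp5g2, on 66 UMIs. For Atp5g2 the nearest others were VSMC, at 36.0% and 39.2%, and EC 2, at 34.7% and 44.2%, beside 27.9% and 33.7% in Fibro 2. By level Atp5g1 did not stand apart, at 358 and 247 CPM in Fibro 1, 318 and 249.6 in Fibro 2 and 319 and 322 in VSMC. Atp5g2 had 175 to 200.4 CPM in fibroblast sums and 115 to 431 CPM (median 349) elsewhere, with overlap, and was lower (-0.91 ± 0.10, adjusted p = 1.7e-09).

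Atp5g3 gave 35.5% and 35.3% of these UMIs in EC 2, 18.6% and 19.97% in EC 1 and 16.7% and 17.8% in EC 3. Between EC 2 and EC 1 Atp5g3 was higher (0.55 ± 0.16) and Atp5g2 lower (-0.62 ± 0.18). Without cells holding a Ucp1 UMI the folds were 0.60 and -0.69, and both kept their call.

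**Figure D5:**
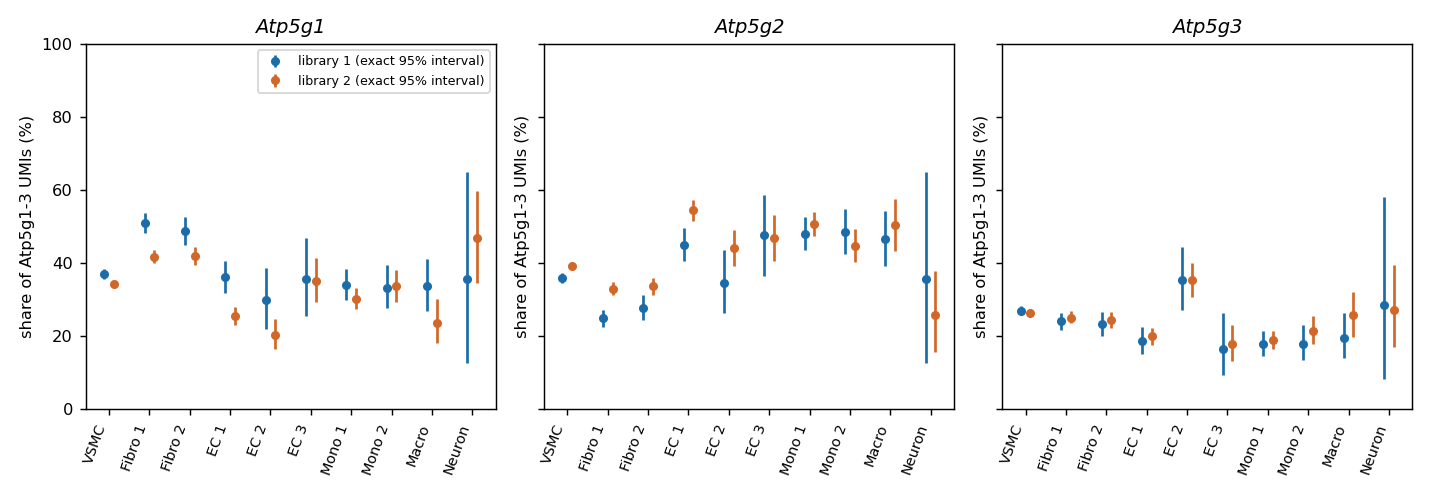
Share of Atp5g1, Atp5g2 and Atp5g3 UMIs (%, vertical axis) from each gene, per population and library, with exact 95% binomial intervals that cover counting error only. Atp5g1 is at 50.9% and 41.8% in Fibro 1, and Atp5g3 at 35.5% and 35.3% in EC 2.

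Members varied unequally. Without Neuron the ratio of the highest to the lowest population mean had a median of 2.00 over 87 members and was under 2 for 43. It was lowest for Atp5d (1.29) and Atp5a1 (1.38), the delta and alpha subunits of ATP synthase, and highest for Cox8b (31.5), Ndufaf5 (8.20) and Ndufc2 (6.20). The lowest means of the first pair rest on few UMIs, 0 and 6 for Cox8b in EC 3 and 0 and 3 for Ndufaf5 in EC 2, so these ratios are imprecise. Cox7a1 has no ratio because EC 3 had no UMI.

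Among 6792 other genes with at least 500 UMIs, those whose level over the 20 sums was most like the members' were Zcrb1 (Pearson r = 0.83), Idh3g (0.82), Map7d1 (0.81), Bnip2 (0.79), Chchd2 (0.79), Pdcl3, Clic4, Sod2, Des and Bcam (down to 0.76). The sums share libraries and depth, so these are descriptions with no p. Idh3g is a subunit of isocitrate dehydrogenase, Sod2 the mitochondrial superoxide dismutase and Des the muscle filament desmin.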

How the data were processed

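Droplet libraries of dissociated aorta were made with 10x v2 chemistry, per the labels' protocols, and the submitters' processing notes name Cell Ranger 2.1. The genome build and annotation are not given in the sources used here. The deposited table holds raw UMI counts per gene and cell, not normalized, and a second deposited table gives each cell's population, whose making is not stated. The barcode suffix marks the library.

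UMIs were summed per library and population into 20 sums. edgeR 4.0.16 (R 4.3.3) fitted population and library terms by quasi-likelihood with TMM factors after filterByExpr, which kept 10488 genes, with 9 residual degrees of freedom. Class comparisons set a class mean against the mean of the other 3, and Neuron entered the fit only. Folds of single libraries use a prior count of 2. CPM levels use all UMIs of the sum. The 84 cells that Scrublet (scanpy 1.11.5) marked as doublets stayed in, and an alternative left them out. DESeq2 1.42.0 and other settings were alternatives. Thinning drew 1300 UMIs from each cell, and 0 cells were shallower. On simulated counts a 2-fold change was recovered for 96% of genes in VSMC against the other classes, 43% in EC 2 against EC 1 and 35% in Mono 1 against Mono 2, and a 1.3-fold change for 23%, 3% and 2%.

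Named members were up to 8 called per direction with the largest fold, 50 or more UMIs and 1 direction over the libraries, plus isoform genes and the complex II subunits. Up to 4 genes were named per other list, and some genes that the rule names are not reported here. Members and lists were chosen with earlier results of these data known. Reads of the 5 members with a named pseudogene (Atp5c1, Atp5k, Atp5l, Ndufab1 and Uqcrh) may be split between copies. Intervals cover counting error only.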

Additional observations from a re-analysis of the deposited data

How the results depend on the processing

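Of 198 counts of members called under an alternative setting, 159 stayed within 1.5 times the reported count, where 0 beside 0 was taken as unmoved. Of 80 shares 61 moved by less than the SD over the libraries and 19 did not. The 80 include each library alone, which with n = 2 always lies within that SD, so those rows could not move. The cause of the moves below was not tested. The library is the block of the fit, and no other pairing exists in a single group. With no replicate block, 2 members were lower in VSMC, 6 higher in endothelial cells, 3 higher and 25 lower in fibroblasts and 10 higher in immune cells, and 0 were lower in EC 2 or EC 3 than in EC 1, in Fibro 2 than in Fibro 1 or in Mono 1 than in Macro. With cells thinned to 1300 UMIs, which left 6879 genes tested, 2 were lower in VSMC, 9 lower in endothelial cells, 2 higher and 22 lower in fibroblasts and 6 higher in immune cells. There 7 were higher in EC 2 than in EC 1, 7 in EC 2 than in EC 3 and 7 in Mono 1 than in Macro, and 1 was lower in EC 3 than in EC 1, in Fibro 2 than in Fibro 1 and in Mono 1 than in Mono 2. Atp5g3 reversed to -0.44 in immune cells and to 0.25 in Mono 1 against Mono 2. Cox8b in fibroblasts was 0.52 in library 1 alone and -0.61 in library 2 alone. A library alone gives folds and no calls. With RLE size factors 2 were lower in EC 3 than in EC 1, and 9 higher and 2 lower in Mono 1 than in Macro. With DESeq2 these were 8, 11 and 2, and 28 were lower in Mono 1 than in Mono 2. Without the filter on low counts 7 were higher in immune cells and 7 lower in EC 3 than in EC 1. Fits to the compared populations gave 1 higher and 5 lower in Fibro 2, 4 lower in Mono 1 than in Macro and 26 lower in Mono 1 than in Mono 2. Without cells over 10% mitochondrial UMIs 1 was lower in Fibro 2 and the VSMC share was 2.84%. Alternatives chosen after seeing the data left out cells with a Ucp1 UMI (EC 2 against EC 1, 7 higher and 4 lower, against EC 3, 6 higher, and an EC 2 share of 2.44%) or Macro (29 lower in endothelial and 12 in immune cells). With mitochondrially encoded UMIs out of the total, shares were 2.92% in VSMC, 2.36% in EC 1, 2.33% in EC 3, 2.32% in Mono 2 and 1.93% in Macro. With ribosomal protein UMIs out too, they were 3.34% in VSMC, 2.33% in Fibro 1, 2.39% in Fibro 2, 2.89% in EC 1, 3.24% in EC 2, 2.74% in EC 3, 2.44% in Mono 1, 3.01% in Mono 2, 2.86% in Macro and 2.52% in Neuron. The mean of per-cell shares was 2.57% in VSMC and 1.77% in Macro.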
